A study of Canis lupus familiaris with 34 samples.

Results

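Transcript levels of 9 receptor tyrosine kinases that are drug targets in sarcoma, and of 1 ligand, were examined in osteosarcoma of the dog, a bone-forming sarcoma. The receptors were MET, KIT, ERBB2, EGFR, PDGFRA, PDGFRB, AXL, FGFR1 and FGFR2, and the ligand was HGF. These 10 genes were chosen by symbol, from 7849 genes tested, and 16 probe sets on the array carried their symbols. Of these, 12 passed the filter used here, a log2 intensity over 5 on at least 3 arrays, and each of the 10 genes had at least 1 probe set that did. The study set osteosarcoma cell lines against osteosarcoma tissues on Affymetrix Canine_2 arrays. Lines from the primary tumours of 24 dogs took 25 arrays, lines from metastases took 3, and primary tumour tissue, frozen without culture, took 6. Averaging both line arrays of one dog, called dog 22 here, left 24 primary lines.

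Receptor tyrosine kinases span the cell membrane, bind growth factors outside the cell and phosphorylate themselves and adaptor proteins inside it, which feeds the RAS-ERK and PI3K-AKT pathways. Each class has its own ligands: HGF for MET, KITLG for KIT, GAS6 for AXL, PDGFs for PDGFRA and PDGFRB, FGFs for FGFR1 and FGFR2, and EGF-like factors for EGFR. ERBB2 has no ligand of its own and pairs with its relatives. In tumours such receptors can sit on the malignant cells or on the stroma around them: KIT is known on mast cells and on some endothelial and progenitor cells, and PDGFRB on pericytes and fibroblasts.

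No group carried an experimental treatment, and lines were primary tumour cells or cryopreserved cultured cells per the labels. Passage number and clonality are not stated there. The dogs' own clinical treatment was labelled with abbreviations that are not spelled out: among the 25 primary line arrays SOC on 11, SOC* on 3 (dogs that died before or during chemotherapy), AMP on 3, PALL on 2, ABX on 1 and no label on 5. The metastatic lines carried SOC, PALL and no label on 1 each, and the tissues SOC on 3 and no label on 3. For dog 22, line array 19 was labelled SOC, and line array 22 and tissue 5 had no label. Primary line arrays came from 10 Rottweilers, 8 Golden Retriever arrays and other breeds, at ages at diagnosis of 2 to 11.19. Metastatic lines came from 2 Rottweilers and 1 other dog aged 2.39 to 6.31, and tissues from 3 Golden Retrievers and 3 other dogs aged 2.67 to 11.91 (the age unit is not labelled). Sample titles carried 1 of 3 prefixes, which were examined as possible batches. Title prefix 1 held 4 primary lines (lines 1 to 4), title prefix 2 covered 19 primary line arrays and every metastatic line, and lines 22 and 23 shared title prefix 3 with all 6 tissues.

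The precision of a mean is set here by how many arrays were made, since arrays have no read depth. All values are log2 of GCRMA intensity (called the level), and differences are log2 differences. Each probe set has its own response, so levels do not rank different genes by amount of transcript. Counts of genes over log2 5 likewise describe the probe sets used. The difference between 3′ and 5′ actin probe sets, a sign of RNA quality, was 1.42 ± 0.96 (SD, n = 24) in primary lines and 2.59 ± 1.15 (n = 6) in tissues. Metastatic line 1 had 3.95 on this measure, against 0.65 and 0.63 in metastatic lines 2 and 3, and its 3′ to 5′ GAPDH difference of 5.92 lay above the 2.46 to 4.17 of all other samples. On the actin measure tissue 3 (4.61) and primary line 15 (4.04) were higher still. Macrophage markers averaged 2.20 to 4.77 per array in primary lines and 7.37 to 9.82 in tissues, over 12 markers. Fibroblast markers (8 genes) averaged 7.63 to 13.29 in primary lines and 11.14 to 12.81 in tissues. Among osteoblast markers COL1A1, COL1A2 and SPARC were over log2 5 in all 24 primary lines, whereas ALPL was over log2 5 in 4, PTH1R in 3 and IBSP in 0 of them. Other primary lines had at most 3 of 12 endothelial and 1 of 12 macrophage markers over log2 5. Primary line 4 stood apart from them, with 6 of 12 endothelial and 4 of 12 macrophage markers over log2 5. Among the former were PECAM1 (13.88), EMCN (13.88) and KDR (10.81), whereas the endothelial genes VWF and TIE1 were at 3.02 and 2.31. The latter were the leukocyte gene LAPTM5 (13.74), CD68 (8.70), CD14 (7.99) and MSR1 (6.43). The epithelial gene KRT18 was at 6.16, and the fibroblast genes DCN and FAP were at 5.16 and 3.09. Metastatic line 1 had the epithelial genes EPCAM (11.34), KRT8 (10.80) and KRT18 (13.51), with CDH1 at 2.29. It also had 5 of 12 endothelial and 0 of 12 macrophage markers over log2 5. EPCAM was also over log2 5 in primary lines 25 (12.19), 12 (8.84), 23 (8.24) and 6 (7.83), against a median of 2.40 over primary lines, and in tissues 5 (8.78) and 2 (6.86). Of these 4 primary lines only line 6 also had KRT8 over log2 5 (7.26), and none had KRT18 or CDH1 over it.

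In primary lines MET and AXL were higher than in tumour tissue, and KIT was lower. MET was higher by 1.82 (SE 0.50, adjusted p = 0.00841, limma with Benjamini-Hochberg adjustment over all genes), AXL by 2.08 (SE 0.55, adjusted p = 0.0063), and KIT was lower by 2.98 (SE 0.38, adjusted p = 2.9e-07). Thus 3 of the 10 genes passed the test of an adjusted p under 0.05 and at least 2-fold. Over all genes 14.6% passed it, 5.57% higher and 9.06% lower in lines, and the median difference over all genes was -0.05. The other 7 genes did not pass. MET, ERBB2 and HGF passed the filter on low values only through lines, and KIT only through tissues, so for these a difference was favoured by the filter. Without the filter the same 3 genes were called (adjusted p = 0.011 for MET, 0.00844 for AXL and 5.7e-07 for KIT). They were also the 3 called without line 4, without line 6, and without the 4 primary lines with EPCAM over log2 5. In bulk samples fewer cells of a type and less RNA per cell cannot be told apart.

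**Figure D1:**
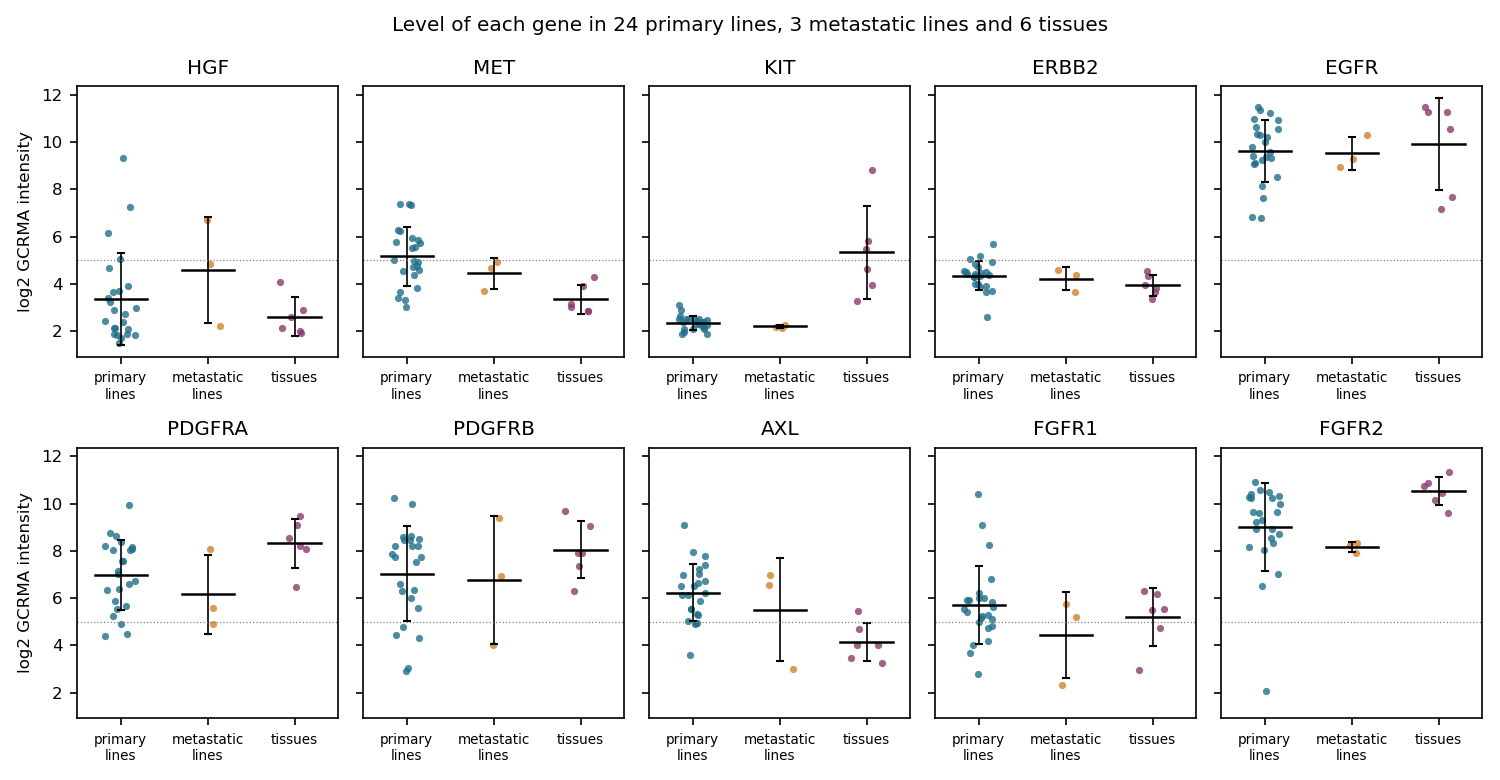
Level of each gene (log2 GCRMA intensity) in 24 primary lines, 3 metastatic lines and 6 tissues; points are lines or tissues, bars are the mean and SD, and the dotted line marks log2 5. On the probe set shown for each gene, all 24 primary lines lie below all 6 tissues for KIT. For MET 19 lie above all tissues and for AXL 17, and the groups overlap for the other genes.

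HGF, the ligand that activates MET and that is mostly made by mesenchymal cells, was low in most samples. In primary lines it ranged from 1.49 to 9.33 with a median of 2.81, and 4 of 24 lines were over log2 5. These were line 4 (9.33), line 3 (7.27), line 5 (6.13) and line 7 (5.05). The metastatic lines had 2.22, 4.85 and 6.69, and the 6 tissues 1.91 to 4.10, so no tissue was over log2 5. The difference between primary lines and tissues was 0.77 (SE 0.80, 95% half-width 1.63, adjusted p = 0.524), an interval that includes both directions, and without line 4 it was 0.51. Over the primary lines the SD of HGF was 1.93, larger than that of 95.4% of all genes (median SD 0.67). Without line 4 it was 1.49. Title prefix moved with it: the 4 lines of prefix 1 averaged 5.91 ± 2.88 (SD) and the 19 arrays of prefix 2 averaged 2.86 ± 1.29. The part of the prefix in this spread was not tested.

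MET, the HGF receptor, ranged from 3.01 (line 18) to 7.39 (line 25) in primary lines, with a median of 4.97 and a mean of 5.17 ± 1.25 (SD, n = 24). Its level exceeded log2 5 in 11 of 24 lines, and lines 25, 21 and 3 were the highest (7.39, 7.36 and 7.33). The 6 tissues had 3.16, 2.85, 2.87, 3.90, 4.31 and 3.01, all below log2 5, and 19 of 24 lines lay above every tissue. The 3 metastatic lines had 4.68, 4.94 and 3.71 and also stayed below log2 5. The fold between primary lines and tissues was 3.52, and since the tissue values lie low on the scale its size depends on the background there. Only title prefix 3 held lines and tissues together, and there lines 22 and 23 (6.00 and 5.84) exceeded all tissues, with a difference of 2.57 (adjusted p = 0.0243, where 3.2% of all genes were called). With prefix as a covariate in all arrays the difference was the same and the adjusted p was 0.0501, so the call was lost, and 6.28% of genes were called. Lines of prefix 1 had 6.38 ± 0.68 (n = 4) and those of prefix 2 had 4.86 ± 1.21 (n = 19). With each tissue left out in turn the difference was 1.72 to 2.01.

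AXL, the receptor of GAS6, was the other receptor higher in lines. It ranged from 3.61 (line 12) to 9.09 (line 2) with a median of 6.19 and a mean of 6.22 ± 1.21 (SD, n = 24), and 20 of 24 lines were over log2 5. The tissues had 3.48, 4.03, 3.23, 5.43, 4.70 and 4.01, so only tissue 4 was over log2 5, and 17 lines exceeded every tissue. The fold was 4.21, and with most tissue values low on the scale its size also depends on the background there. Within title prefix 3 lines 22 and 23 (6.66 and 7.95) stood 3.16 above the tissues (adjusted p = 0.0346), and with prefix as a covariate the adjusted p was 0.0283. Metastatic line 1 had the lowest AXL value of all 33 samples (2.997), and the other metastatic lines had 6.98 and 6.55. The epithelial keratins and the 3′ to 5′ differences of metastatic line 1 are given above, and their part in this value was not tested. A second AXL probe set was below log2 5 in every sample (2.21 in lines, 2.16 in tissues) and shows no difference to set beside the first.

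KIT, the stem cell factor receptor, was below log2 5 in every line. Primary lines ranged from 1.87 to 3.10 with a median of 2.37, and the metastatic lines had 2.27, 2.19 and 2.14. Tissues had 8.83, 3.93, 4.63, 5.83, 3.28 and 5.48, so tissues 1, 4 and 6 were over log2 5. On this probe set all 6 lay above all 24 lines, the closest being tissue 5 (3.28) and line 25 (3.10). The difference corresponded to 7.87-fold, and since the line values lie at the bottom of the scale its size depends on the background there. Without tissue 1 the difference was -2.28 (adjusted p = 7.98e-09), and with each tissue left out it ranged from -3.39 to -2.28. Within title prefix 3, with 2 lines, the difference of -2.92 kept its size but not its call (adjusted p = 0.229), and with prefix as a covariate it was called (adjusted p = 0.00645). A second KIT probe set, which failed the filter, averaged 2.24 in lines and 4.59 in tissues. On it the groups overlapped, with primary lines at 1.80 to 3.24 and tissues at 2.38 to 7.58.

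Markers of other cell types moved with KIT in different ways. Of 12 endothelial markers on the array 8 were tested and 6 were lower in primary lines. Of 12 macrophage markers 11 were tested and all 11 were lower, where 9.06% of all genes were lower. For 2 of these 6 and 7 of these 11, levels over log2 5 occurred in tissues alone, so the filter favoured a lower call. Tissue 1, with the highest KIT level, also had the highest mean over endothelial markers (8.41) and over pericyte markers (7.87). Tissue 2, with the next highest endothelial mean (7.56), had the second lowest KIT level. Tissue 5, with the lowest KIT level, had the highest macrophage mean (9.82). None of the 7 mast cell markers on the array passed the filter: their mean was 2.05 to 2.48 in primary lines and 2.12 to 4.19 in tissues. The mast cell protease CPA3 was at 6.73 in tissue 2, where KIT was 3.93, and at 1.59 to 2.11 in the other 5 tissues. The part of these cells in the KIT difference was not tested.

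PDGFRA, a receptor of mesenchymal cells, was over log2 5 in 21 of 24 primary lines, 2 of 3 metastatic lines and all 6 tissues. Lines ranged from 4.40 (line 2) to 9.95 (line 13) with a mean of 6.99 ± 1.47, and tissues from 6.49 to 9.47 with a mean of 8.31 ± 1.04. The ranges overlapped, with 14 of 24 lines inside the range of the tissues and 9 below it. The difference of -1.33 (SE 0.63, 95% half-width 1.28, adjusted p = 0.126) did not pass the test. Within title prefix 3 it was -0.07 (adjusted p = 0.966), since lines 22 and 23 had 8.26 and 8.22.

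PDGFRB, the receptor of pericytes and fibroblasts, was the most variable of the 10 genes between lines, on the probe set that stood for each gene. Its SD over primary lines was 2.01, larger than that of 96.1% of genes, and its levels ran from 2.90 (line 4) to 10.23 (line 13) with a median of 7.72. Of the 24 lines 19 were over log2 5, and the 5 others were lines 4 (2.90), 6 (3.05), 19 and 22 averaged (4.32), 25 (4.42) and 23 (4.79). In that average, array 19 was over log2 5 (5.74) and array 22 was not (2.91). The epithelial gene EPCAM was over log2 5 in 3 of the 5 (lines 6, 23 and 25) and in 1 of the other 19 (line 12, PDGFRB 6.33). KRT8, KRT18 and CDH1 were below log2 5 in lines 23 and 25, and line 6 had only KRT8 over it. Line 4 had the mixed markers given above. The part of these markers in the low levels was not tested. The tissues lay between 6.31 and 9.70 (mean 8.04 ± 1.21), with 14 of 24 lines inside that range, 8 below it and 2 above it. The difference between primary lines and tissues was -1.01 (SE 0.86, 95% half-width 1.75, adjusted p = 0.422). It was -0.83 without line 4, -0.84 without line 6 and -0.53 without the 4 primary lines with EPCAM over log2 5 (adjusted p = 0.642). Within title prefix 3, whose lines had 2.91 and 4.79, it was -4.19 and called (adjusted p = 0.0415), and with prefix as a covariate it was not (adjusted p = 0.0864). A second PDGFRB probe set gave 4.39 in lines and 4.29 in tissues, a difference of 0.10 in the other direction (adjusted p = 0.92). Its SD over primary lines was 1.46, and 7 of 24 lines were over log2 5 on it.

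Genes whose levels most resembled PDGFRB over the 24 primary lines were SERPINF1 (Pearson r = 0.88), which encodes the secreted factor PEDF, AEBP1 (0.87), a collagen-binding matrix protein, POSTN (0.87), which encodes periostin, EGLN1 (0.87) and MORC4 (0.86). They share arrays and title prefixes, so these values are a description. Without line 4 SERPINF1 was at 0.85 and AEBP1 at 0.89, and in the 19 lines of prefix 2 they were at 0.85 and 0.90. SERPINF1 and POSTN were picked for their correlation with PDGFRB over these lines, so lower levels where PDGFRB is low follow from that choice. In the 5 lines with PDGFRB below log2 5, SERPINF1 was 10.37 to 12.87, against 12.25 to 14.48 in the other 19. POSTN was 2.12 to 6.64 in the former and 5.21 to 13.20 in the latter. FGFR1 was 2.78 to 4.98 in the 5 lines and 4.74 to 10.42 in the other 19. FGFR2 was 10.30 to 10.90 in 4 of the 5 lines and 2.06 in line 4, against 6.53 to 10.49 (median 9.20) in the other 19.

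**Figure D2:**
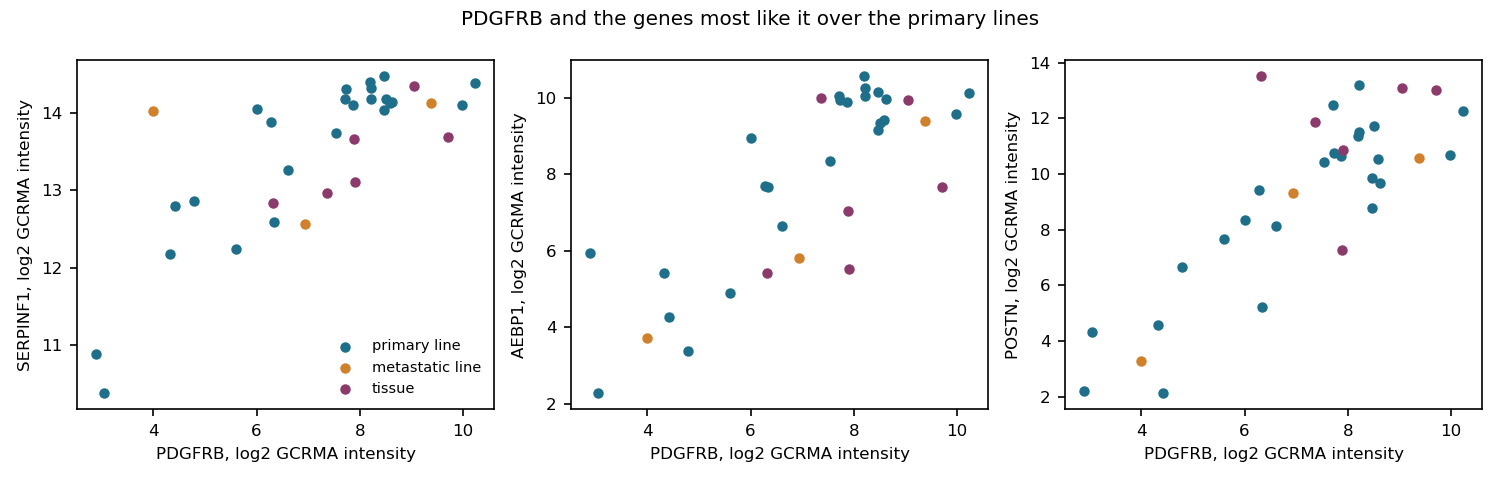
PDGFRB level (horizontal axis, log2 GCRMA intensity) against SERPINF1, AEBP1 and POSTN (vertical axes, log2 GCRMA intensity) in 24 primary lines, 3 metastatic lines and 6 tissues, 1 point a sample. The genes on the vertical axes were picked for their correlation with PDGFRB over the same primary lines. The 5 primary lines with PDGFRB below log2 5 lie at 10.37 to 12.87 for SERPINF1, and metastatic line 1 (PDGFRB 4.00) lies above them at 14.04.

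FGFR1 and FGFR2, the FGF receptors, overlapped between lines and tissues. FGFR1 ranged from 2.78 (line 6) to 10.42 (line 2) in primary lines with a mean of 5.71 ± 1.65 and was over log2 5 in 17 of 24. Lines 1, 2 and 3, all of title prefix 1, had 9.09, 10.42 and 8.25, whereas line 4 of that prefix had 3.69 and the arrays of prefix 2 had 2.78 to 6.81. Tissues had 2.97 to 6.30, and the difference was 0.51 (SE 0.71, 95% half-width 1.44, adjusted p = 0.645). It was 0.79 without the 4 primary lines with EPCAM over log2 5, and its sign turned within prefix 3 (-0.53, adjusted p = 0.747). The closest genes to FGFR1 over the lines were SCARA3, SEPTIN9, CDC42BPA, B4GALT1 and PTGFR (r = 0.91, 0.91, 0.90, 0.88 and 0.87), and in prefix 2 alone they were 0.68, 0.59, 0.35, 0.38 and 0.64.

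FGFR2 was over log2 5 in 23 of 24 primary lines, all 3 metastatic lines and all tissues. Its primary line levels lay between 6.53 (line 16) and 10.90 (line 6) except in line 4, which had 2.06. The tissues lay higher and closer together, at 9.60 to 11.33 (mean 10.52 ± 0.60), and 13 of 24 lines were below all of them. The difference of -1.52 (SE 0.73, 95% half-width 1.48, adjusted p = 0.128) did not pass the test. Without line 4 it was -1.22 (adjusted p = 0.0505), and with array weights it was -1.52 and passed (adjusted p = 0.0364). Within title prefix 3 it was 0.25 in the other direction (adjusted p = 0.793). The second kept FGFR2 probe set gave 5.49 in lines and 6.76 in tissues, a difference of -1.27 (adjusted p = 0.244). The correlation of FGFR2 with its closest gene, DDX39B, was 0.84 over 24 lines and 0.49 without line 4.

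EGFR, the EGF receptor, was over log2 5 in every sample. Primary lines ranged from 6.78 (line 4) to 11.48 (line 16) with a mean of 9.61 ± 1.32, metastatic lines had 10.31, 8.96 and 9.28, and tissues had 10.55, 11.48, 7.17, 11.25, 11.27 and 7.68. Tissues 3 and 6 lay below the other 4, and the difference between primary lines and tissues was -0.29 (SE 0.62, 95% half-width 1.27, adjusted p = 0.782). It was -0.16 without line 4, -0.14 without the 4 primary lines with EPCAM over log2 5 and -1.24 within title prefix 3 (adjusted p = 0.609). Lines 2, 3 and 4 of title prefix 1 had 6.83, 7.63 and 6.78, below the 8.52 to 11.48 of prefix 2, and line 1 had 10.21. A second EGFR probe set was below log2 5 in all samples (2.02 in lines, 2.12 in tissues). REV3L, PCMTD1, LARP1B, HADH and LAMB2 were closest to EGFR over the lines (r = 0.87, 0.84, 0.84, 0.84 and 0.83).

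ERBB2, the receptor known as HER2, was below log2 5 in most samples of all groups and varied little between them. Primary lines ranged from 2.58 (line 4) to 5.67 (line 23) with a mean of 4.35 ± 0.61, an SD larger than that of 42.4% of genes, and 3 of 24 were over log2 5. Metastatic lines had 3.67, 4.36 and 4.61 and tissues 3.34 to 4.55, none over log2 5. The difference of 0.42 (SE 0.26, 95% half-width 0.54, adjusted p = 0.263) did not pass the test. Within title prefix 3, where lines 22 and 23 had 6.07 and 5.67, ERBB2 was higher by 1.94 and called (adjusted p = 0.0353), as it was with prefix as a covariate (adjusted p = 0.00331). Line 19, of the same dog as line 22 but in prefix 2, had 3.75.

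**Figure D3:**
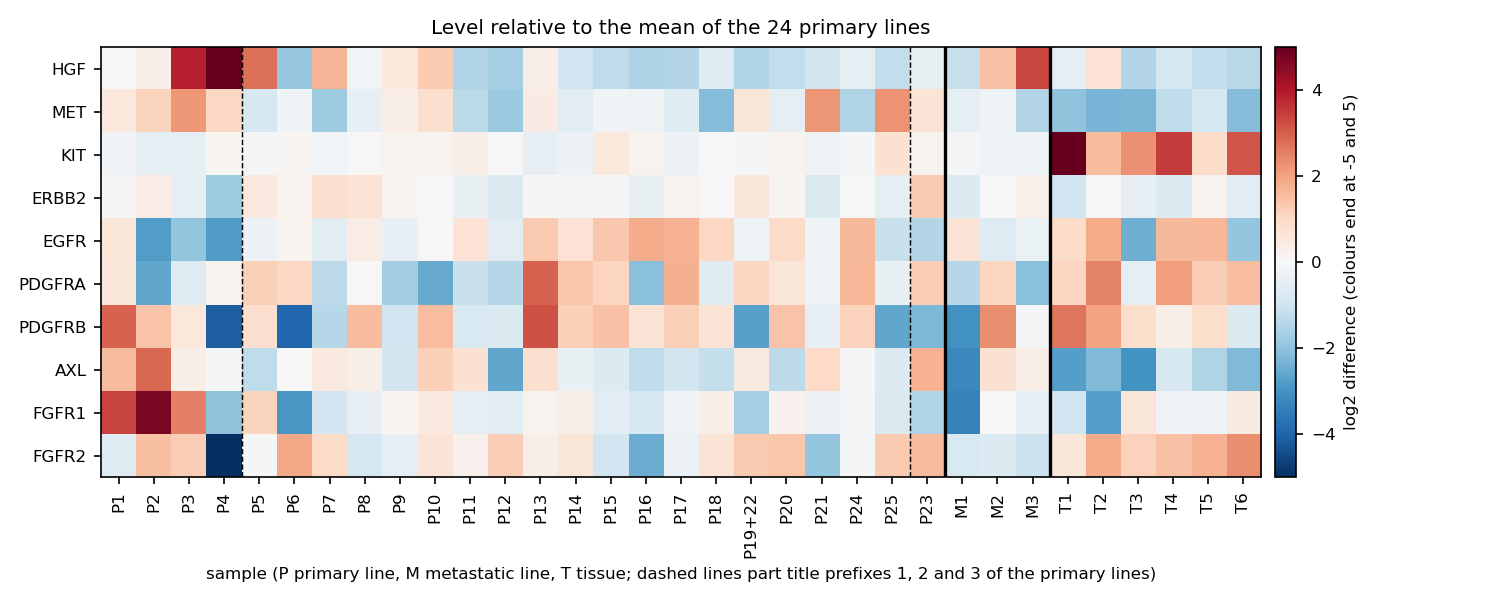
Level of each gene (rows) in each primary line, metastatic line and tissue (columns), as the log2 difference from the mean of the 24 primary lines, with colours ending at -5 and 5; dashed lines part the title prefixes of the primary lines. KIT is high in tissues and near 0 in all lines, FGFR1 is high in lines 1 to 3, and line 4 is low for PDGFRB and FGFR2 and high for HGF.

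The number of the 10 genes over log2 5 differed between lines. Primary line 3 had 8 of them (all but KIT and ERBB2), and primary line 16 had 3 (EGFR, PDGFRB and FGFR2). Metastatic line 1 also had 3 (EGFR, PDGFRA and FGFR2), and the other metastatic lines had 6 each. By SD over primary lines, on the probe set that stood for each gene, the order was PDGFRB (2.01), HGF (1.93), FGFR2 (1.86), FGFR1 (1.65), PDGFRA (1.47), EGFR (1.32), MET (1.25), AXL (1.21), ERBB2 (0.61) and KIT (0.29). The last had an SD larger than that of 5.3% of genes, with all its line levels below log2 5. Line 4 set much of the spread of FGFR2, whose SD was 1.16 without it. Other kept probe sets gave an SD of 1.46 for PDGFRB and 1.90 for FGFR2.

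Dog 22 gave 2 line arrays (lines 19 and 22) and tissue 5, and another, called dog 23, gave line 20 and tissue 6. In both dogs MET and AXL were higher in the line and KIT lower. MET was higher by 1.47 in dog 22 and 1.72 in dog 23, AXL by 1.95 and 0.91, and KIT differed by -1.03 and -2.95. PDGFRB and EGFR went opposite ways in the 2 dogs: PDGFRB differed by -3.57 in dog 22 and 2.15 in dog 23, and EGFR by -1.92 and 2.87. With 1 pair a dog these differences carry no test. Both line arrays of dog 22, one in prefix 2 and one in prefix 3, gave nearly the same AXL level (6.65 and 6.66) but differed in PDGFRB (5.74 and 2.91), ERBB2 (3.75 and 6.07) and FGFR1 (2.90 and 5.15). Over all genes the median absolute difference between these arrays was 0.56 and the 95th percentile 2.34.

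**Figure D4:**
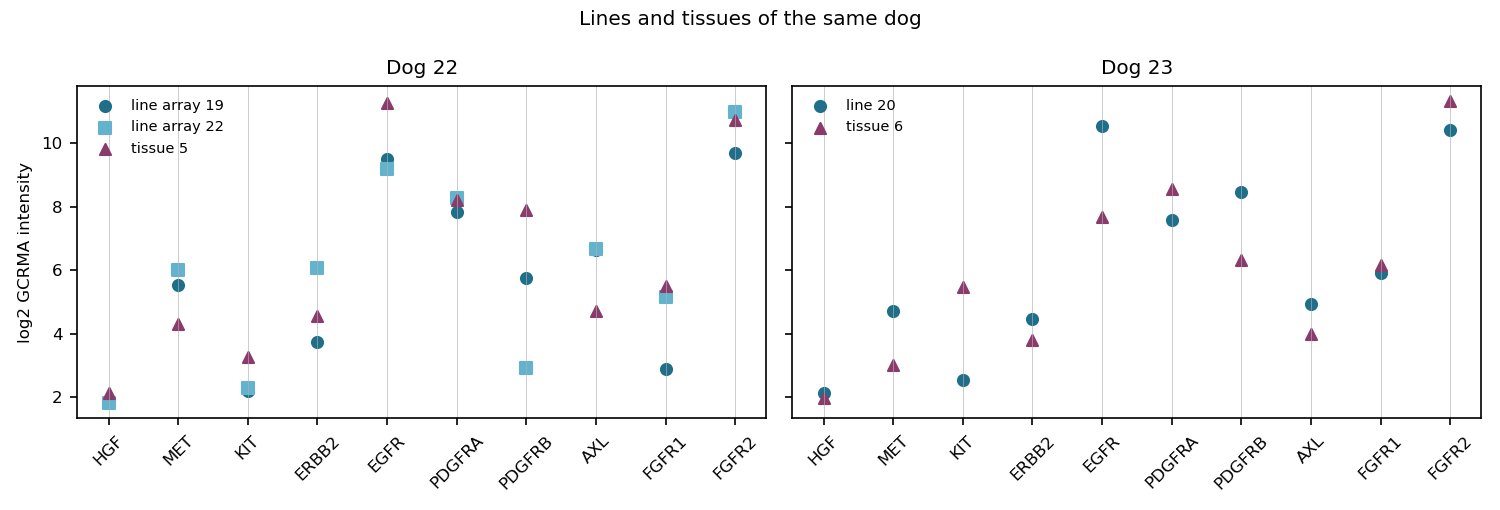
Level of each gene (log2 GCRMA intensity) in the line arrays and the tissue of dog 22 and of dog 23, 1 point an array. MET and AXL lie higher and KIT lower in the lines of both dogs, and PDGFRB lies lower in the lines of dog 22 and higher in the line of dog 23.

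Several of these receptor genes have a receptor gene as neighbour in the UU_Cfam_GSD_1.0 gene table, where PDGFRA, KIT and KDR lie in a row and CSF1R lies beside PDGFRB. KDR, the VEGF receptor of endothelial cells, averaged 3.98 in primary lines and 9.84 in tissues (difference -5.87, adjusted p = 3.6e-07). CSF1R, the macrophage growth factor receptor, averaged 2.18 in primary lines and 5.42 in tissues (difference -3.24, adjusted p = 2.8e-10). CSF1R was over log2 5 in 3 tissues and no line, so it passed the filter through tissues alone and the size of its difference depends on the background in lines. In this row KIT was below log2 5 in every line. KDR was over it in 3 of 24 primary lines and 2 metastatic lines, and PDGFRA in 21 of 24 primary lines. The 2 genes on each side of every member were looked up, and 20 of them that are no members were tested. Of these, 6 were called, where 14.6% of all genes were. KDR and CSF1R were lower in primary lines. CAV1 (1.25, limma adjusted p = 0.00194) and CAV2 (1.99, adjusted p = 6.3e-05), the caveolins beside MET, were higher. So were VOPP1 (1.47) near EGFR and SEMA3C (3.73) near HGF. SEMA3C was over log2 5 in 15 primary lines, 2 metastatic lines and no tissue, so the filter favoured its call. Over the primary lines MET correlated at 0.59 with CAPZA2, 0.21 with CAV1, 0.16 with ST7 and 0.12 with CAV2, the 4 neighbours looked up, as a description.

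**Figure D5:**
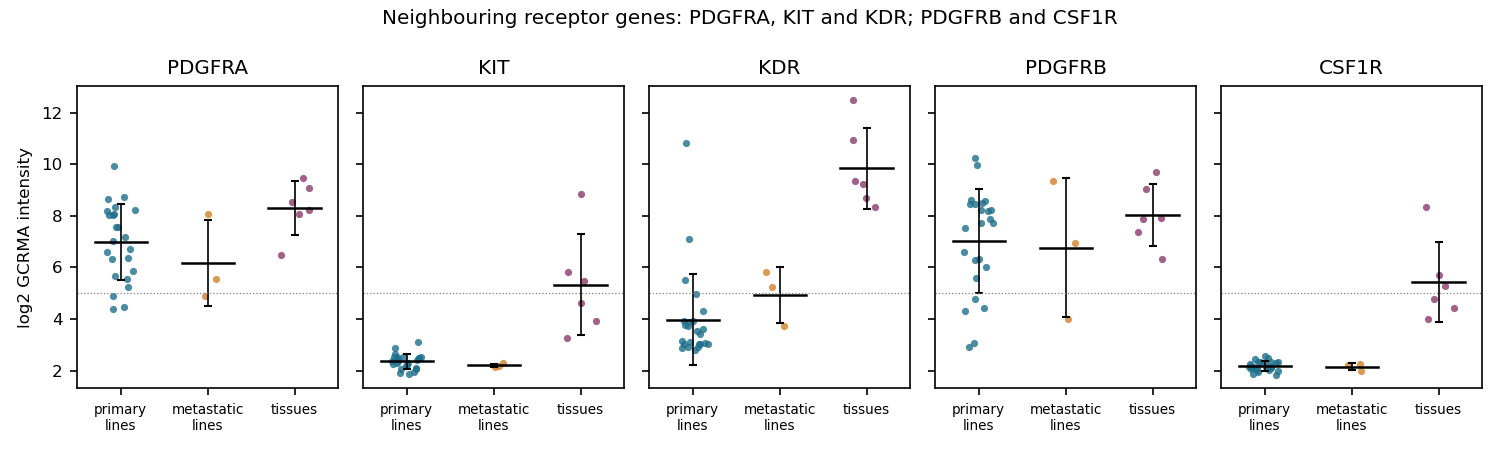
Level (log2 GCRMA intensity) of the neighbouring receptor genes PDGFRA, KIT and KDR, and of PDGFRB and CSF1R, in 24 primary lines, 3 metastatic lines and 6 tissues; bars are the mean and SD, and the dotted line marks log2 5. KIT and CSF1R lie below log2 5 in every line, whereas PDGFRA, PDGFRB and KDR span both sides of it. The line with KDR at 10.81 is line 4.

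Among 20 ligands of these receptors, all on the array, 10 were tested: 1 was higher in primary lines, 1 was lower and 8 did not pass. Over all genes 5.57% were higher and 9.06% lower. The median difference of the ligands was 0.45 (-0.05 over all genes). FGF2, an activator of FGFR1, was higher by 3.41 (7.55 in lines, 4.15 in tissues, adjusted p = 0.000178). PDGFD, an activator of PDGFRB, was lower by 4.59 (5.78 in lines, 10.37 in tissues, adjusted p = 0.000403). KITLG, the KIT ligand, was over log2 5 in 23 of 24 primary lines, 3 of 3 metastatic lines and 5 of 6 tissues. Its mean was 7.48 ± 1.19 in primary lines and 6.42 ± 1.93 in tissues (limma, adjusted p = 0.198). KIT, on its own probe sets, was below log2 5 in every line. Neither GAS6, the AXL ligand, nor PROS1, which was listed with it, passed. GAS6 had 8.61 in lines and 8.21 in tissues (limma, adjusted p = 0.821), and PROS1 9.61 and 7.90 (adjusted p = 0.113).

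For the lists that follow, the shares over all genes were 5.57% higher in primary lines and 9.06% lower. Of 39 other receptor tyrosine kinases 37 were on the array and 17 were tested. Among these 17, 0 were higher in primary lines and 5 were lower, with a median difference of -0.63. Besides KDR and CSF1R these were EPHA3 (-4.11, adjusted p = 0.000248), an ephrin receptor, NTRK2 (-3.62, adjusted p = 8.1e-06), the BDNF receptor, and TIE1 (-3.99, adjusted p = 7.99e-12), an endothelial receptor. TIE1 and CSF1R were over log2 5 in tissues alone, so for these 2 of the 5 the filter favoured a lower call. The AXL relatives TYRO3 and MERTK did not pass (-1.07 and -1.40, adjusted p = 0.0515 and 0.0516), while AXL itself was higher in lines. Downstream of the receptors, 14 of 24 adaptors and signal relay genes were tested, with 2 higher, 1 lower and a median of 0.27. PTPN11, the phosphatase SHP2, was higher by 1.14 and CBLB, a ubiquitin ligase that marks receptors for degradation, by 2.63 (adjusted p = 0.00262 and 0.0111). PIK3R1, the regulatory subunit of PI3K, was lower by 1.19 (8.41 in lines, 9.60 in tissues, adjusted p = 0.0199). Among 17 feedback inhibitors and ERK target genes 9 were tested and 2 were higher, with a median of 0.99: LRIG1, a negative regulator of receptors (2.21, adjusted p = 0.00865), and CCND1, cyclin D1 (2.33, adjusted p = 0.00625). LRIG1 was over log2 5 in 6 primary lines, 1 metastatic line and no tissue, so the filter favoured a higher call for it. Among 8 genes of HGF activation 3 were tested, and SPINT2, an inhibitor of HGF-activating proteases, was lower in lines (-1.08, adjusted p = 0.00284).

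Between metastatic and primary lines none of the 10 genes passed the limma test (adjusted p under 0.05), and over all genes 0.0127% did (1 of 7849, with 533 at an unadjusted p under 0.05). Differences, metastatic minus primary, were 1.22 for HGF, -1.27 for FGFR1, -0.84 for FGFR2, -0.82 for PDGFRA, -0.72 for MET and -0.71 for AXL, with adjusted p from 0.835 to 0.902. PDGFRB, KIT, ERBB2 and EGFR differed by -0.26, -0.16, -0.14 and -0.10. The 95% half-widths, not adjusted for the number of genes, reached from 0.72 (ERBB2) to 2.34 (PDGFRB). Differences within those widths were not detectable with 3 metastatic lines, and larger ones could also fail after adjustment over all genes. Metastatic lines were not tested against tissues. Metastatic line 1, with its epithelial genes and its 3′ to 5′ differences given above, had the lowest level of the 3 for PDGFRB (4.00), AXL (2.997) and FGFR1 (2.34). The part of either in these levels was not tested. Without it the difference was 1.13 for PDGFRB, 0.54 for AXL, -0.23 for FGFR1, -0.52 for PDGFRA and 2.40 for HGF. With each metastatic line left out in turn HGF ranged from 0.17 (without line 3) to 2.40, FGFR1 from -1.93 (without line 2) to -0.23, PDGFRA from -1.76 (without line 2) to -0.18 (without line 3) and MET from -0.97 (without line 2) to -0.35 (without line 3). None of these passed the test. None of the 5 pathway lists above had a member that passed in this comparison.

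Rottweiler (n = 10) and Golden Retriever (n = 7) primary lines did not differ past the limma test in any of the 10 genes, and 0.0382% of all genes passed (3 of 7849, with 867 at an unadjusted p under 0.05). The smallest p was that of EGFR, with 8.90 in Rottweiler and 10.38 in Golden Retriever lines (difference -1.48, SE 0.44, unadjusted p = 0.00346, adjusted p = 0.278). Within title prefix 2 its difference was -1.11. HGF was 3.93 and 2.20 (difference 1.73, adjusted p = 0.375). Survival entered a limma fit on its log2 value, in 11 primary lines of dogs labelled SOC (4.04 to 64.01, unit and censoring not labelled). No member passed the limma test and 0% of all genes did (0 of 7849, with 384 at an unadjusted p under 0.05). The smallest p among the 10 was that of ERBB2 (slope 0.24 per doubling, unadjusted p = 0.0365, adjusted p = 0.906).

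Across the 24 primary lines 17 pairs of receptors and ligands were listed, and 13 could be tested with 100000 permutations each. None had an adjusted p under 0.05. The closest was MET with EGFR, at Pearson r = -0.52 (permutation p = 0.00909, adjusted p = 0.118) and Spearman rho = -0.49 (permutation p = 0.017, adjusted p = 0.11). Without the 2 lines farthest from the median r was -0.53, and within title prefix 2 it was -0.32 (permutation p = 0.18). MET and AXL had r = 0.46 (permutation p = 0.0253, adjusted p = 0.13) and rho = 0.53 (permutation p = 0.00921, adjusted p = 0.11), and within prefix 2 r was 0.38. HGF and its receptor MET had r = 0.28 (permutation p = 0.189, adjusted p = 0.35) and rho = 0.29 (permutation p = 0.169, adjusted p = 0.274), with r at -0.02 without the 2 farthest lines and -0.06 within prefix 2. FGF2 and FGFR1 had r = 0.42 (permutation p = 0.0399, adjusted p = 0.13), rho = 0.33 (permutation p = 0.115, adjusted p = 0.214), and 0.59 within prefix 2 (permutation p = 0.009, adjusted p = 0.0585). KITLG and KIT had r = -0.44 (permutation p = 0.0333, adjusted p = 0.13) and rho = -0.26 (permutation p = 0.225, adjusted p = 0.325), with r at -0.20 without the 2 farthest lines and -0.63 within prefix 2 (permutation p = 0.00641, adjusted p = 0.0585), where every KIT level lay below log2 5. FGF7 and FGFR2 had r = -0.05 (permutation p = 0.825, adjusted p = 0.894) and rho = -0.38 (permutation p = 0.0686, adjusted p = 0.214). Without line 4 their r was -0.51 (permutation p = 0.0141, adjusted p = 0.0612), and within prefix 2 it was -0.47 (permutation p = 0.0413, adjusted p = 0.179).

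The genes closest to MET over the primary lines were SGK3 (r = 0.81), ORC4 (0.81), LAMTOR3 (0.79), CAPZA1 (0.78) and SS18 (0.77), and within prefix 2 these were at 0.79, 0.83, 0.75, 0.73 and 0.71. For AXL they were CHTF8, CHMP7, NIPA2, DLAT and DNAAF5 (r = 0.75, 0.75, 0.74, 0.74 and 0.73, or 0.55, 0.57, 0.61, 0.60 and 0.43 within prefix 2). For PDGFRA they were RARRES2 (0.74), which encodes chemerin, the integrin ITGB5 (0.73), the collagen COL14A1 (0.65), TRIB2 (0.64) and EGLN3 (0.63). For HGF they were BAX (0.82), ESM1 (0.81), IFT74 (0.81), TCIRG1 (0.79) and CDH16 (0.79), and without line 4 these were at 0.66, 0.75, 0.68, 0.62 and 0.79. KIT and ERBB2, with an SD under 1, were not searched. These coefficients describe 24 lines that share arrays and prefixes, and they were picked as the highest of all genes.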

How the data were processed

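Groups, breed, treatment and survival came from the labels. The values used were the deposited intensities of 43035 probe sets on 34 arrays from 31 dogs, which the authors computed with GCRMA according to the submitters' processing notes, without a stated version or settings. These deposited intensity values were linear; a floor at 1, which altered 0 values, preceded log2. Of these, 439 had several symbols, 13332 were not listed in the platform annotation and 29264 had a single symbol. The 175 control probe sets, 165 of them not listed, were left out with the first 2 classes. Outside the controls, 27680 single-symbol probe sets matched the UU_Cfam_GSD_1.0 gene table. Probe sets over log2 5 on at least 3 arrays were kept (18591, of which 14059 had a single symbol), and the one with the highest mean stood for each of 7849 genes.

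Groups were compared with limma 3.58.1 (lmFit and eBayes, R 4.3.3) in 1 fit of the 3 groups across all genes, with Benjamini-Hochberg adjustment and a threshold of 0.05, and at least 2-fold for lines against tissues. Breed and survival had a fit each. The script was tested on simulated data. Both line arrays of dog 22 were averaged. The average was not used within a title prefix: array 19 was used alone within title prefix 2, and array 22 alone within title prefix 3. Correlations used two-sided permutation tests (Python 3.11.15, numpy 2.4.6). Otherwise each line was from its own dog. Line and tissue share the animal in dogs 22 and 23, per the labels, and their deviations from the group means correlated at 0.157 and -0.175.

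Genes named were the 10 members, called genes of each list and its 3 with the largest difference, and the 5 genes most correlated with each member whose SD was at least 1. KITLG, GAS6, PROS1, the AXL relatives and neighbouring genes were named beyond this rule. The members and lists were chosen with earlier results of these data known. Alternatives were scaling, filter, probe set, array weights, title prefix, dog as a block and left-out samples; those without line 6 and without the 4 EPCAM-high lines were chosen after seeing the data. Sequences of these genes were not used here.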

Additional observations from a re-analysis of the deposited data

How the results depend on the processing

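The arrays give no depth, and 3 metastatic lines and 6 tissues limit the precision. Lines and tissues met only in title prefix 3, so the covariate rests on 2 lines there. Title prefix as a covariate with the average of dog 22 was not run, because that average spans 2 prefixes; the fit with both arrays apart was chosen after seeing the data.

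MET and AXL (higher) and KIT (lower) were called under every alternative for lines against tissues, except MET with prefix as a covariate (2.57, adjusted p = 0.0501), KIT within prefix 3 (-2.92, adjusted p = 0.229) and KIT with the filter at log2 7, where it was not tested and 2 members were called. The fit with dog as a random replicate block (estimated correlation -0.03) called the same 3 members (MET 1.82, AXL 2.08, KIT -2.98) and 1153 genes in all, and changed no other member's call. Array weights called 1473 genes, the covariate 493 and prefix 3 alone 251, against 1148. For metastatic lines 24 genes, none a member, were called without metastatic line 2. The count of members called was 3 without each tissue in turn, where MET ranged from 1.72 to 2.01, AXL from 1.89 to 2.33 and KIT from -3.39 to -2.28. FGFR2 was called with array weights (-1.52), ERBB2 with the covariate and within prefix 3 (1.94), and PDGFRB within prefix 3 (-4.19).

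Of the values that were not called, these changed sign. For lines against tissues, the covariate and prefix 3 gave FGFR1 -0.53, FGFR2 0.25 and HGF -0.20. EGFR changed sign without tissue 2 (0.029); it was -0.83 without tissue 3 and -1.24 with the covariate and within prefix 3. For metastatic against primary lines AXL was 0.18 with array weights. With each metastatic line left out, ERBB2 ranged from -0.34 to 0.13, PDGFRB from -1.56 to 1.13 and AXL from -1.45 to 0.54, each highest without line 1, and EGFR from -0.50 to 0.18, with 0.025 without line 3. For breed MET was -0.0103 with quantile normalization and -0.20 within prefix 2. Within prefix 2 the survival slopes were 0.0124 for MET, -0.0238 for KIT and 0.0276 for HGF, and the correlations were -0.064 for HGF with MET, 0.26 for PDGFC with PDGFRA and 0.0037 for MET with PDGFRA. The cause was not tested.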
